A study of Mus musculus with 15 samples.

Results

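The genes described here are 50 genes of the integrated stress response and the unfolded protein response, listed by name. They fall into 6 roles: 11 stress transcription factors and regulators, 9 enzymes of amino acid synthesis and one-carbon metabolism, 6 amino acid transporters, 4 genes of the sensors and Xbp1, 14 chaperones and folding enzymes of the endoplasmic reticulum (ER), and 6 genes of ER-associated degradation. The first 3 roles, 26 genes, are called the ATF4 arm below, and the last 2 roles, 20 genes, the ER arm. All 50 were among the 18194 genes that had a probe set of their own, and of several probe sets for a gene the one with the greatest mean log2 signal on the 15 arrays stood for it. A gene was tested if that probe set lay above the array's median on at least 3 arrays, which kept 49 of the 50 among 11459 genes in all. The cystine transporter Slc7a11 was not tested.

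Primary mammary tumour cells of MMTV-PyMT mice on the FVB/N background were grown as floating mammospheres for 10 days and then exposed to an inhibitor or vehicle for 2 days. The 5 groups of 3 arrays were DAPT, which blocks Notch through γ-secretase, U0126, which blocks MEK1, TAE226, which blocks focal adhesion kinase (FAK), PP2, which blocks Src kinases, and vehicle. Every group, vehicle included, carried the PyMT oncogene, which the MMTV promoter drives in mammary epithelium, and received serum-free medium with EGF, FGF and B27. The labels call the 3 arrays of a group biological replicates. The sources used here give neither the doses nor whether a replicate was a mouse, a pool of mice or a culture. Each p-value thus speaks only of the spread among these arrays, which may be technical in part.

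In the integrated stress response, kinases that sense ER stress, lack of amino acids, lack of haem or double-stranded RNA phosphorylate the initiation factor eIF2, which lowers most translation but favours that of the transcription factor ATF4. ATF4, with C/EBP partners, then raises genes for amino acid synthesis and uptake, the transcription factor CHOP (Ddit3) and the inhibitor Trib3. In the unfolded protein response the ER membrane sensors IRE1 (Ern1), ATF6 and PERK (Eif2ak3) react to unfolded protein: IRE1 splices the Xbp1 mRNA, XBP1 and ATF6 raise chaperones and degradation genes, and PERK acts on eIF2. Secretory cells, mammary epithelium among them, rely on this system when they make much secreted protein.

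Sequence just upstream of the genes is shown first, because the sets of genes named above are known for different control elements. The promoter table of RefSeq (mouse build GRCm38.p6) held 42 of the 50 genes, and the 250 bases before each start were searched on both strands. The C/EBP-ATF response element (CARE), TGATGNAA, was present for 7 of 22 genes of the ATF4 arm and 1 of 17 of the ER arm, against 3.91% of all 27025 genes. The ER stress response element (ERSE), CCAAT and CCACG with 9 bases between them, was present for 0 of 22 and 9 of 17, against 0.13% of all genes. ERSE-II, ATTGG and CCACG with 1 base between them, was found at Herpud1 of the members and at 10 genes in all. The core of the XBP1 element, ACGTGG, whose complement overlaps the last 5 bases of both ERSE forms, was present for 2 of 22 and 5 of 17, against 7.84%. These counts are a description with no test, and a match shows letters, not binding. Aldh1l2, Slc7a5, Slc7a3, Slc1a5, Atf6, Manf, Hyou1 and Derl1 had no window here.

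The CARE matches are shown in capitals with 20 bases on each side where the window reaches that far, on the strand of the gene, for the asparagine synthetase gene Asns (chr6:7693210-7693252, minus strand), the glutathione-degrading enzyme gene Chac1 (chr2:119351029-119351076, plus strand), the stress transcription factor gene Atf3 (chr1:191183416-191183463, minus strand) and the mitochondrial carboxykinase gene Pck2 (chr14:55540143-55540190, plus strand). In the last 3 the match lies on the opposite strand and reads TTGCATCA or TTACATCA.
Asns: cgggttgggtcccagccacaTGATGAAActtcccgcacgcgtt
Chac1: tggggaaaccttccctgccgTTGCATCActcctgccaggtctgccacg
Atf3: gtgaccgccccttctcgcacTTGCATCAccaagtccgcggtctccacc
Pck2: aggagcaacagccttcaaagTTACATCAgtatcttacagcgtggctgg

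The ERSE matches are shown the same way for chaperone and degradation genes whose values are given below: Hspa5 (chr2:34772005-34772063, plus strand), Pdia6 (chr12:17266471-17266529, plus strand), Dnajc3 (chr14:118937807-118937865, plus strand) and Syvn1 (chr19:6046512-6046570, plus strand). Herpud1, which encodes an ER membrane protein of the degradation complex, held both a CARE (chr8:94386297-94386344) and an ERSE-II (chr8:94386357-94386407). The gene is on the plus strand, and its CARE reads TTGCATCA because the match lies on the opposite strand.
Hspa5: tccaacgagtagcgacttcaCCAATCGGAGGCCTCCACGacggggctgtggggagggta
Pdia6: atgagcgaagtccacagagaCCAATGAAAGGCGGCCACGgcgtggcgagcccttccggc
Dnajc3: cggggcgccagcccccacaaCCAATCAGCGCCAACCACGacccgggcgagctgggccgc
Syvn1: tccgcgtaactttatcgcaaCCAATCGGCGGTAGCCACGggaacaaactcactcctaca
Herpud1 CARE: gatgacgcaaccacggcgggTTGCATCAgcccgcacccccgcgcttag
Herpud1 ERSE-II: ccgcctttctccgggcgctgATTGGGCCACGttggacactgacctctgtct

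Array medians ran from 65.96 to 91 intensity units after the authors' scaling. A pair of arrays differed by a median of 0.0956 to 0.15 (absolute log2 difference over probe sets) in the same treatment and by 0.169 to 0.351 in different treatments. The 8 epithelial markers lay above the median on all arrays, with a summed intensity of 68638 to 70004 under DAPT, 77694 to 88385 under U0126, 78038 to 88314 under TAE226 and 78813 to 80993 under PP2, against 74879 to 76996 in vehicle. The sum under DAPT lay wholly below vehicle and the other 3 wholly above it, but the 8 genes did not move together. Called higher and lower were 2 and 2 under DAPT, 3 and 2 under U0126, 3 and 1 under TAE226 and 1 and 2 under PP2. Of all genes 34.3%, 40.7%, 30.9% and 52.8% were called in either direction. The 7 leukocyte genes on the array summed to 345.6 to 393.4 under DAPT, 358.5 to 444.8 under U0126, 394.4 to 495.9 under TAE226 and 364.4 to 583.1 under PP2, against 291.3 to 390.3 in vehicle, with Ptprc and Itgam below the median on all arrays. Of the 4 leukocyte genes tested, Adgre1 (log2 fold change 0.94) and Laptm5 (0.82) were higher under PP2, and 0 were called under the other inhibitors. The part of these markers in the results below was not tested. Fibroblast (7 genes), endothelial (5) and adipocyte (4) lists reached at most 347.7, 247.5 and 117.8 on any array, with Col1a1, Pecam1 and Adipoq below the median on all arrays. The actin 3′ to 5′ ratio, which rises as RNA shortens, was 1.35 ± 0.07 under DAPT, 1.28 ± 0.07 under U0126, 1.33 ± 0.07 under TAE226 and 1.57 ± 0.04 under PP2, against 1.42 ± 0.06 in vehicle (SD, n = 3 each), and its part in the results below was not tested. The array numbers in the labels ran group by group, so their order and the treatment cannot be told apart.

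Stress response genes were lower under every inhibitor than in vehicle, and few were higher. Under DAPT 36 of the 49 tested were lower, 1 was higher and 12 were not called, where 34.3% of all genes tested were called (17.5% lower). Under U0126 41 were lower, 2 were higher and 6 were not called (40.7% of all genes, 21.3% lower). Under TAE226 35 were lower, 0 were higher and 14 were not called (30.9% of all genes, 15.9% lower). Under PP2 30 were lower, 3 were higher and 16 were not called (52.8% of all genes, 26.9% lower). A call is an adjusted p under 0.05 in the limma fit of all 11459 genes.

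The median log2 fold change of the members was −0.41 under DAPT, −0.52 under U0126, −0.47 under TAE226 and −0.42 under PP2, while that of all genes was between 0.00 and 0.02. Of the 49 genes, 36 (73.5%) had their highest group mean in vehicle, where 19.3% of all genes did, and 0 had their lowest there, against 21.4% of all genes. The 4 comparisons use the same 3 vehicle arrays, so a member high on those arrays is lower in all of them. Some difference among the 5 groups was called for 48 of 49 members by limma's F-test, against 72.9% of all genes, where Atf6, the ER membrane transcription factor, was not called (adjusted p = 0.127). Arrays of inhibitor and vehicle did not overlap for 38 members lower and 3 higher under DAPT, 43 lower and 2 higher under U0126, 41 lower and 0 higher under TAE226 and 32 lower and 5 higher under PP2, where 46.4%, 48.1%, 43.2% and 58.9% of all genes did not overlap. In bulk RNA, fewer cells that use these genes and less RNA per cell cannot be told apart.

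**Figure D1:**
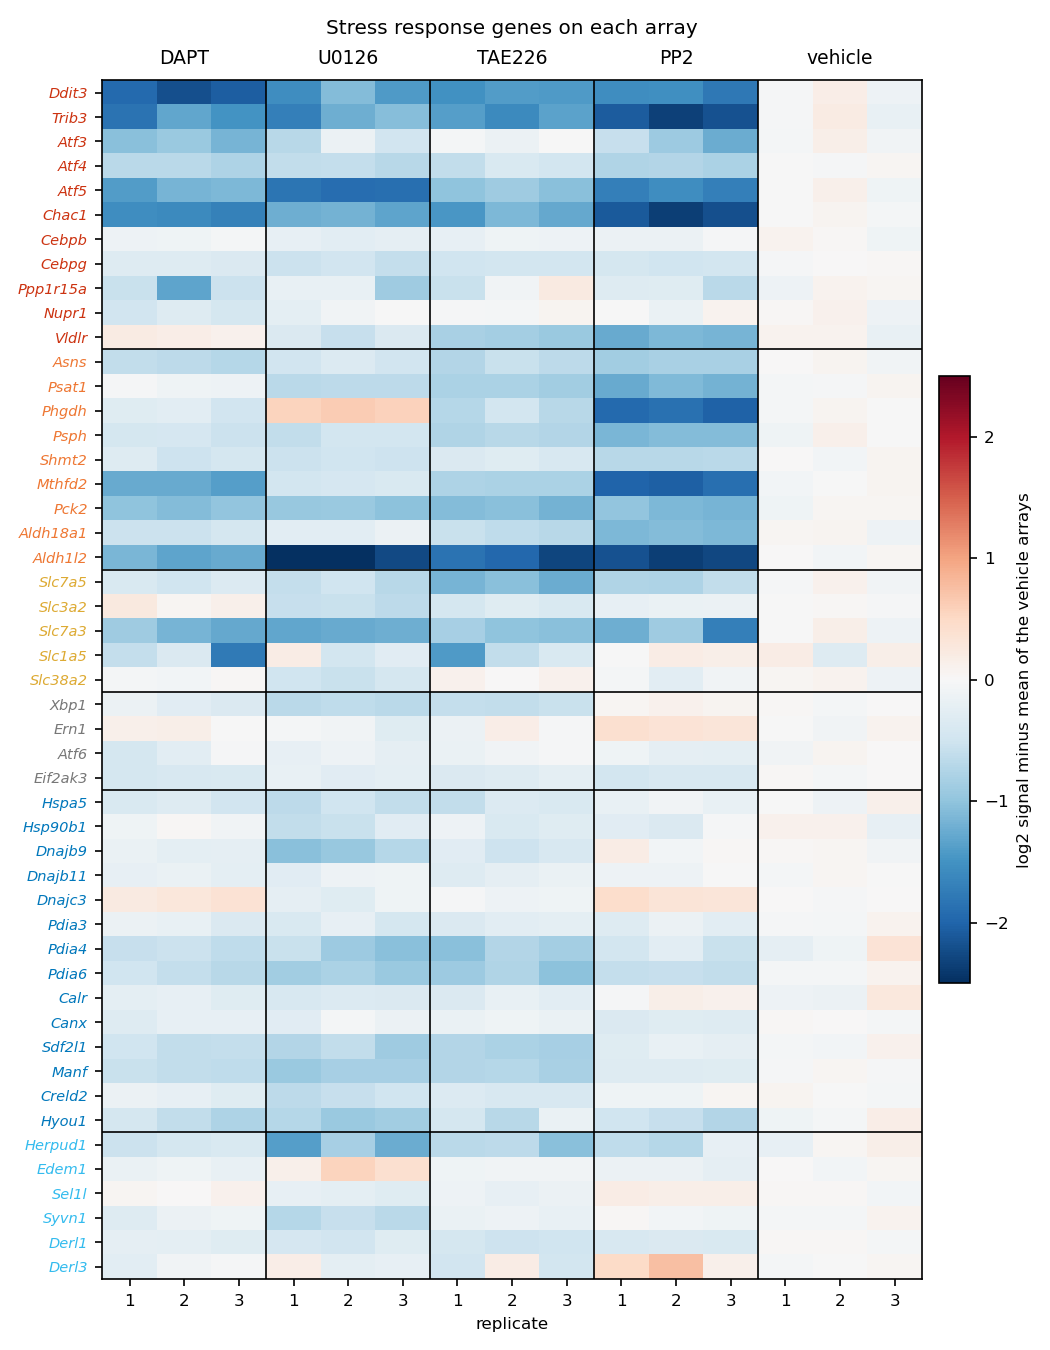
Log2 signal of 49 stress response genes on each of 15 arrays, as the difference from the mean of the 3 vehicle arrays, with genes in rows by role and arrays in columns by treatment. Blue marks lower signal and red higher, and most rows are blue under all 4 inhibitors, while Phgdh is red under U0126 and Dnajc3 under DAPT and PP2.

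Relative to the array median, more members were lower under DAPT, TAE226 and PP2, and fewer under U0126. Centring each array on its median moved the median of all genes to −0.12 under DAPT, −0.08 under U0126, −0.24 under TAE226 and −0.20 under PP2, and the share of higher genes among all calls to 21.9%, 33%, 9.03% and 21.7% in that order, against 49%, 47.6%, 48.6% and 49% with the authors' scaling. On that scale 38, 39, 44 and 40 members were lower, where 21.4%, 21.2%, 37.2% and 38.1% of all genes were, and 0, 1, 0 and 0 members were higher. The members' medians were −0.54, −0.60, −0.72 and −0.64.

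Most of the ATF4 arm was lower under each inhibitor, with the lowest median under PP2. Of its 25 tested genes 19 were lower under DAPT (median −0.66), 21 under U0126 (median −0.52), 19 under TAE226 (median −0.73) and 20 under PP2 (median −1.09). The only member of this arm called higher was Phgdh under U0126. In the ER arm 14, 18, 14 and 9 of 20 genes were lower under DAPT, U0126, TAE226 and PP2, with medians of −0.24, −0.53, −0.33 and −0.20. Beside both arms, 17.5%, 21.3%, 15.9% and 26.9% of all genes were lower in the same order. With 1 array of the groups compared left out, the ER arm counts were 10 to 13, 16 to 18, 12 to 14 and 7 to 10. The DAPT calls of Dnajb11, Pdia3, Calr, Creld2, Herpud1 and Syvn1 each ended in some of these fits. Under PP2 11 of these 20 genes were called in either direction, close to the 52.8% of all genes, and with median centring the ER genes lower under PP2 numbered 15.

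**Figure D2:**
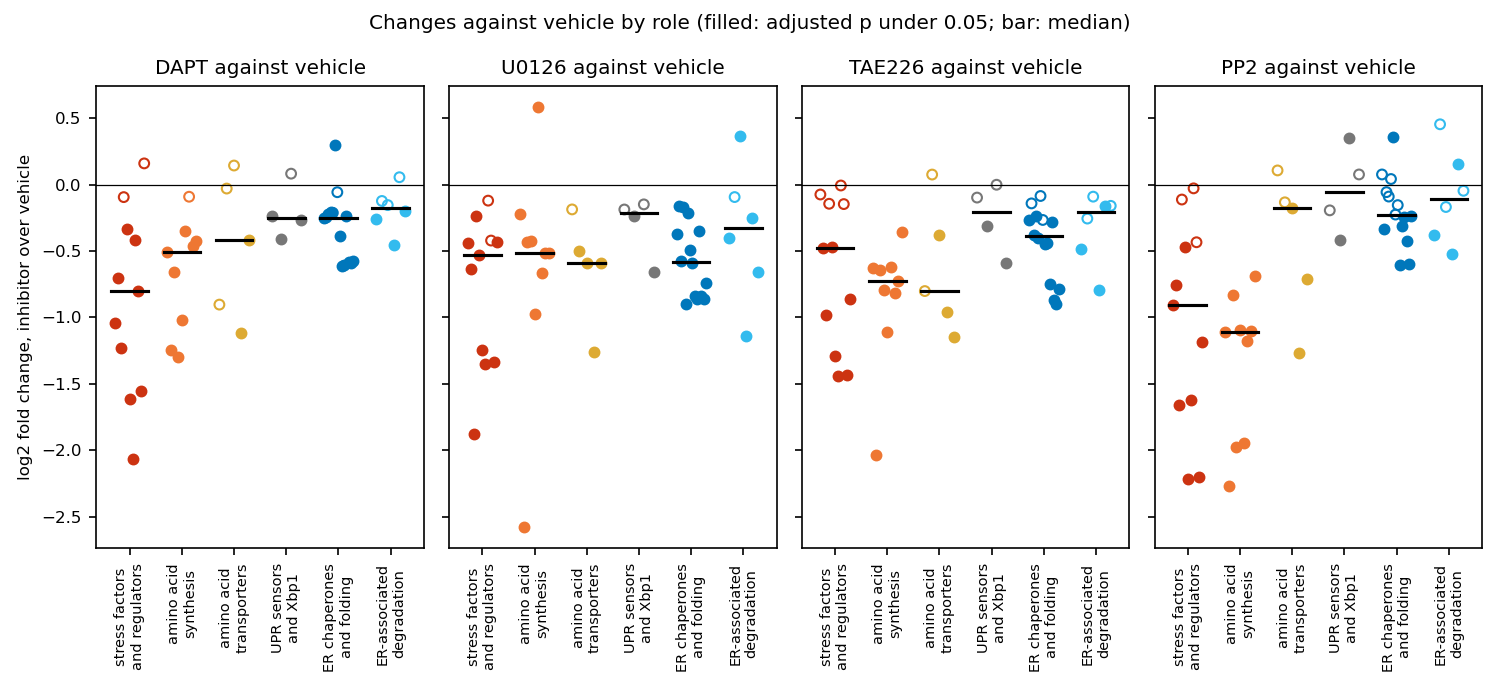
Log2 fold change of each tested member against vehicle in 4 panels, 1 per inhibitor, with genes grouped by role, filled circles for an adjusted p under 0.05 and a bar at the median of the role. Under PP2 the median of the synthesis enzymes is at −1.11 and that of the ER chaperones at −0.23, while under U0126 these medians are −0.52 and −0.58.

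Among the stress transcription factors and regulators, 9 of 11 genes were lower under DAPT, 9 under U0126, 7 under TAE226 and 8 under PP2, and none was higher. The shares of all genes that were lower were 17.5%, 21.3%, 15.9% and 26.9% in that order. Ddit3 encodes CHOP, a transcription factor that promotes death of stressed cells. Its log2 signals were 8.81, 8.56 and 8.68 under DAPT, 9.20, 9.66 and 9.34 under U0126, 9.24, 9.35 and 9.32 under TAE226, 9.21, 9.22 and 8.96 under PP2, against 10.72, 10.91 and 10.62 in vehicle. All 12 inhibitor arrays lay below all 3 vehicle arrays, and DAPT gave the lowest values. The log2 fold change of Ddit3 was −2.07 under DAPT (SE 0.11, adjusted p = 4.89e-10), −1.35 under U0126 (SE 0.11, adjusted p = 5.61e-08), −1.44 under TAE226 (SE 0.11, adjusted p = 6.71e-08) and −1.62 under PP2 (SE 0.11, adjusted p = 3.25e-09). A dimmer second probe set of Ddit3 gave −0.68, −0.38, −0.26 and −0.26 in the same order.

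Trib3 encodes a pseudokinase that CHOP and ATF4 induce and that binds both. It was measured at 8.88, 9.44 and 9.24 under DAPT, 9.03, 9.52 and 9.67 under U0126, 9.36, 9.15 and 9.41 under TAE226, 8.65, 8.41 and 8.55 under PP2, against 10.72, 10.94 and 10.56 in vehicle. Its groups likewise did not overlap with vehicle, and the 3 PP2 arrays were the lowest of the 15. For Trib3 the log2 fold change was −1.55 under DAPT (SE 0.16, adjusted p = 8.98e-07), −1.33 under U0126 (SE 0.16, adjusted p = 3.53e-06), −1.43 under TAE226 (SE 0.16, adjusted p = 3.25e-06) and −2.20 under PP2 (SE 0.16, adjusted p = 4.8e-09). The Trib3 probe set carries the suffix for possible cross-hybridisation, and a second Trib3 probe set without it gave −1.81, −1.59, −1.66 and −2.69 for the same comparisons.

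Chac1, which cleaves glutathione and is induced through ATF4, followed the same order. Its signals were 8.69, 8.65 and 8.54 under DAPT, 9.02, 9.05 and 8.92 under U0126, 8.78, 9.12 and 8.95 under TAE226, 8.15, 7.88 and 8.04 under PP2, against 10.23, 10.30 and 10.18 in vehicle. PP2 gave the lowest values and no inhibitor array reached the vehicle range. Against vehicle, Chac1 stood at a log2 fold change of −1.61 under DAPT (SE 0.09, adjusted p = 1.17e-09), −1.24 under U0126, −1.29 under TAE226 (SE 0.09, adjusted p = 3.02e-08) and −2.22 under PP2 (SE 0.09, adjusted p = 8.5e-12).

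Atf4 mRNA itself fell by smaller folds than Ddit3, Trib3 and Chac1. Its signals were 12.41, 12.42 and 12.32 under DAPT, 12.47, 12.49 and 12.40 under U0126, 12.48, 12.71 and 12.64 under TAE226, 12.35, 12.35 and 12.31 under PP2, against 13.07, 13.06 and 13.14 in vehicle. All inhibitor arrays lay below vehicle, with TAE226 nearest to it. For Atf4 the log2 fold change was −0.71 under DAPT (SE 0.06, adjusted p = 6.75e-08), −0.63 under U0126 (SE 0.06, adjusted p = 1.6e-07), −0.48 under TAE226 (SE 0.06, adjusted p = 8.17e-06) and −0.76 under PP2 (SE 0.06, adjusted p = 1.08e-08). Averaged over all probe sets of Atf4 the values were −0.31 under DAPT and −0.15 under TAE226, neither of them called. These are levels of mRNA, and ATF4 protein, which is set mainly by translation, was not measured.

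Atf5, a related factor whose translation is also favoured by eIF2 phosphorylation, was measured at 9.79, 10.02 and 10.06 under DAPT, 9.35, 9.29 and 9.29 under U0126, 10.18, 10.29 and 10.14 under TAE226, 9.48, 9.63 and 9.47 under PP2, against 11.17, 11.31 and 11.08 in vehicle. The 3 U0126 arrays were the lowest and the TAE226 arrays the highest of the inhibitor groups. Its log2 fold change was −1.23 under DAPT, −1.87 under U0126 (SE 0.08, adjusted p = 1.1e-11), −0.98 under TAE226 and −1.66 under PP2 (SE 0.08, adjusted p = 3.79e-11).

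Most of the other regulators were called under some inhibitors only, which is no test of a difference between inhibitors (values in brackets are log2 fold changes against vehicle). Atf3, a repressor induced by stress and by growth factor signals, was lower under DAPT (−1.04) and PP2 (−0.90) and was not called under TAE226 (−0.07, adjusted p = 0.748). Its call under U0126 (−0.44) ended without vehicle replicate 2 (adjusted p = 0.0992), U0126 replicate 1 (0.13) or U0126 replicate 3 (0.0683). Vldlr, a lipoprotein receptor that ATF4 can induce, was lower under U0126 (−0.43), TAE226 (−0.86) and PP2 (−1.18) and was not called under DAPT (0.16). The Vldlr probe set used here and below, 1 of 6 for the gene, carries the suffix for possible cross-hybridisation. Cebpg, a C/EBP partner of ATF4, was lower under all 4 (log2 fold change −0.34 to −0.53), but another probe set of Cebpg was called higher under TAE226 and PP2. Nupr1, a stress-induced chromatin protein, was lower under DAPT (−0.42) and not called under the other 3. Ppp1r15a, the phosphatase subunit that reverses eIF2 phosphorylation, was lower under DAPT (−0.80), a call that ended without DAPT replicate 2 (adjusted p = 0.0715). Cebpb, a C/EBP factor that also acts in mammary differentiation, was lower under U0126 (−0.24) and not called under the other 3.

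**Figure D3:**
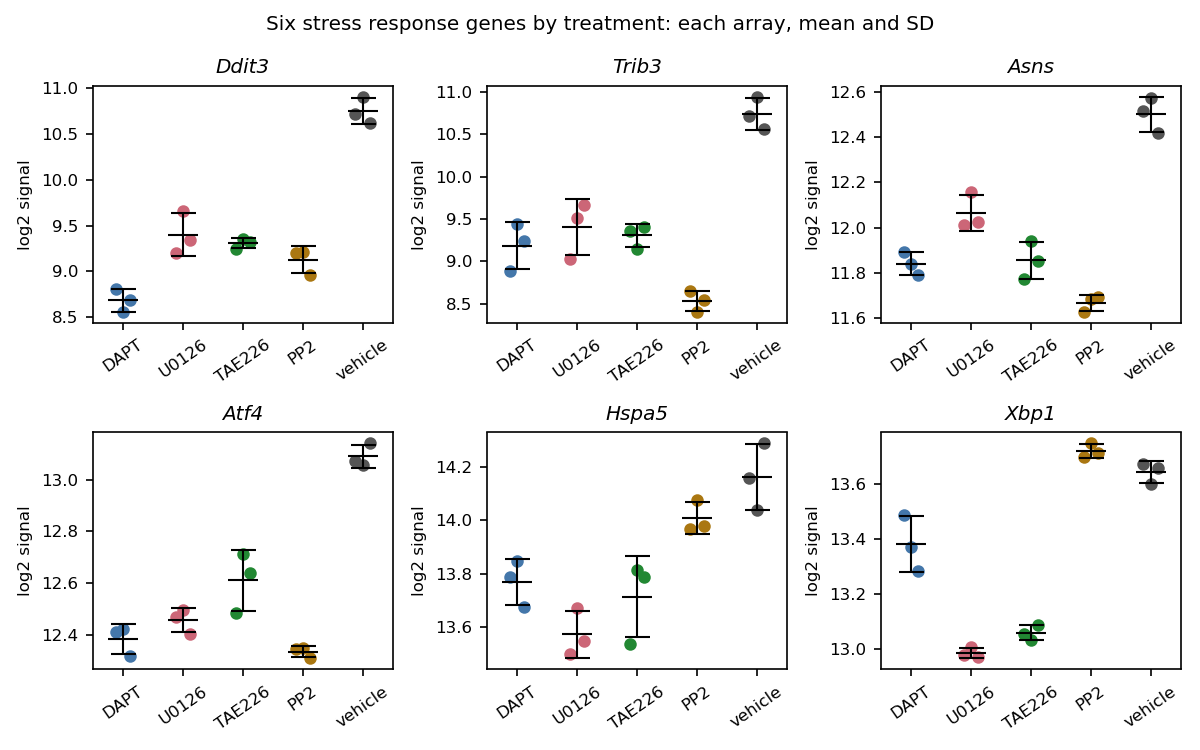
Log2 signal of Ddit3, Trib3, Asns, Atf4, Hspa5 and Xbp1 on each array by treatment, with the mean and SD of 3 arrays in each group and a separate axis, not starting at 0, for each gene. Vehicle lies above all inhibitor groups for Ddit3, Trib3, Asns and Atf4, while Xbp1 under PP2, at 13.70 to 13.75, is just above the vehicle arrays at 13.60 to 13.67.

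All 9 synthesis and one-carbon enzymes were lower under TAE226 and PP2, 8 were lower under DAPT and 8 under U0126. Of all genes 15.9% and 26.9% were lower under TAE226 and PP2, and 17.5% and 21.3% under DAPT and U0126. PP2 gave the lowest mean of the 5 groups for 7 of the 9 enzymes, where it did so for 28.3% of all genes. Asns, which makes asparagine and is a classic ATF4 target, was measured at 11.89, 11.84 and 11.79 under DAPT, 12.01, 12.16 and 12.03 under U0126, 11.77, 11.94 and 11.85 under TAE226, 11.63, 11.68 and 11.70 under PP2, against 12.51, 12.57 and 12.42 in vehicle. Vehicle was highest without overlap, and PP2 was lowest. The log2 fold change of Asns was −0.66 under DAPT (SE 0.06, adjusted p = 2.1e-07), −0.43 under U0126 (SE 0.06, adjusted p = 1.58e-05), −0.65 under TAE226 (SE 0.06, adjusted p = 4.18e-07) and −0.83 under PP2 (SE 0.06, adjusted p = 4.4e-09).

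Phgdh encodes the first enzyme of serine synthesis, and of the 49 genes it had the largest difference between a pair of inhibitors. Its log2 signals were 10.73, 10.76 and 10.55 under DAPT, 11.59, 11.65 and 11.60 under U0126, 10.32, 10.57 and 10.34 under TAE226, 9.09, 9.17 and 9.00 under PP2, against 10.97, 11.10 and 11.01 in vehicle. The U0126 arrays lay above vehicle and the PP2 arrays below every other array. Its log2 fold change was −0.35 under DAPT, 0.58 under U0126, −0.62 under TAE226 and −1.94 under PP2 (SE 0.07, adjusted p = 3.34e-12). All probe sets of Phgdh carry the cross-hybridisation suffix, and the other 3 gave 0.66, 0.63 and 0.14 under U0126 and −1.11, −2.01 and −1.04 under PP2.

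The next enzymes of serine synthesis, Psat1 and Psph, were lower under U0126. Psat1 signals were 13.15, 13.06 and 13.04 under DAPT, 12.49, 12.51 and 12.51 under U0126, 12.38, 12.39 and 12.30 under TAE226, 11.92, 12.06 and 11.98 under PP2, against 13.12, 13.14 and 13.25 in vehicle. The DAPT arrays overlapped with vehicle, while the other groups stepped down to PP2. For Psat1 the log2 fold change was −0.09 under DAPT (not called, adjusted p = 0.195), −0.67 under U0126 (SE 0.05, adjusted p = 2.87e-08), −0.82 under TAE226 (SE 0.05, adjusted p = 7.49e-09) and −1.18 under PP2. Psph was lower under all 4 inhibitors (−0.46, −0.52, −0.73 and −1.11 in the order DAPT, U0126, TAE226, PP2).

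Mthfd2, which oxidises methylene-tetrahydrofolate, was measured at 10.07, 10.06 and 9.96 under DAPT, 10.88, 10.91 and 10.94 under U0126, 10.55, 10.53 and 10.53 under TAE226, 9.32, 9.29 and 9.44 under PP2, against 11.26, 11.32 and 11.40 in vehicle. Its 5 groups did not overlap at all. Against vehicle, Mthfd2 stood at a log2 fold change of −1.30 under DAPT (SE 0.06, adjusted p = 4.1e-11), −0.42 under U0126, −0.79 under TAE226 and −1.98 under PP2 (SE 0.06, adjusted p = 1.84e-13). Aldh1l2, which turns formyl-tetrahydrofolate back to tetrahydrofolate, was measured at 8.96, 8.79 and 8.84 under DAPT, 7.30, 7.43 and 7.85 under U0126, 8.26, 8.14 and 7.81 under TAE226, 7.92, 7.76 and 7.84 under PP2, against 10.12, 10.05 and 10.16 in vehicle. U0126 gave the lowest mean and DAPT lay nearest to vehicle. Its log2 fold change was −1.24 under DAPT (SE 0.13, adjusted p = 1.84e-06), −2.58 under U0126 (SE 0.13, adjusted p = 1.44e-10), −2.04 under TAE226 (SE 0.13, adjusted p = 9.06e-09) and −2.27 under PP2 (SE 0.13, adjusted p = 4.44e-10), the lowest of the 49 genes under U0126, TAE226 and PP2.

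Pck2 was lower under each inhibitor. This mitochondrial enzyme makes phosphoenolpyruvate, and its signals were 9.98, 9.91 and 9.99 under DAPT, 10.02, 10.04 and 9.95 under U0126, 9.89, 9.95 and 9.79 under TAE226, 9.99, 9.85 and 9.82 under PP2, against 10.88, 11.04 and 11.03 in vehicle. All inhibitor arrays lay below vehicle. For Pck2 the log2 fold change was −1.02 under DAPT (SE 0.07, adjusted p = 4.7e-09), −0.97 under U0126 (SE 0.07, adjusted p = 4.69e-09), −1.11 under TAE226 (SE 0.07, adjusted p = 3.6e-09) and −1.09 under PP2. Shmt2, which moves a carbon from serine to folate, was lower under all 4 (log2 fold change −0.35 to −0.69). Aldh18a1, a proline synthesis enzyme, was lower under all 4 as well, with −0.22 under U0126 and −1.11 under PP2. With Shmt2 and Aldh18a1 read from probe sets without the suffix, the call of Shmt2 under TAE226 and that of Aldh18a1 under U0126 ended.

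Among the amino acid transporters, 2 of 5 tested were lower under DAPT, 4 under U0126, 3 under TAE226 and 3 under PP2. Called in either direction were 40%, 80%, 60% and 60% of them, against 34.3%, 40.7%, 30.9% and 52.8% of all genes. The shares under DAPT and PP2 were thus near those of all genes. Slc7a5, the light chain of the large neutral amino acid transporter, was measured at 11.72, 11.61 and 11.76 under DAPT, 11.52, 11.61 and 11.42 under U0126, 10.94, 11.07 and 10.87 under TAE226, 11.35, 11.34 and 11.49 under PP2, against 12.09, 12.22 and 12.01 in vehicle. TAE226 gave the lowest values, and all inhibitor arrays lay below vehicle. Against vehicle, Slc7a5 stood at a log2 fold change of −0.41 under DAPT (SE 0.07, adjusted p = 0.000323), −0.59 under U0126 (SE 0.07, adjusted p = 6.13e-06), −1.15 under TAE226 (SE 0.07, adjusted p = 6.66e-09) and −0.71 under PP2 (SE 0.07, adjusted p = 4.21e-07).

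The heavy chain of the same transporter, Slc3a2, had another order. Its signals were 12.60, 12.41 and 12.48 under DAPT, 11.78, 11.80 and 11.70 under U0126, 11.91, 12.05 and 11.96 under TAE226, 12.15, 12.18 and 12.20 under PP2, against 12.34, 12.39 and 12.32 in vehicle. DAPT arrays lay just above vehicle and U0126 arrays were the lowest. For Slc3a2 the log2 fold change was 0.14 under DAPT (not called, adjusted p = 0.0509), −0.59 under U0126 (SE 0.05, adjusted p = 2.11e-07), −0.38 under TAE226 (SE 0.05, adjusted p = 5.53e-05) and −0.17 under PP2 (SE 0.05, adjusted p = 0.0128). Slc7a3, a transporter of basic amino acids, was lower under each inhibitor (log2 fold change −0.96 to −1.27), and its probe set lay above the median on 9 of 15 arrays.

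Of the other transporters, Slc1a5 and Slc7a11 were read from dim probe sets. The glutamine transporter Slc1a5 was above the median on 7 arrays and was not called against vehicle with any inhibitor (adjusted p = 0.0628 under DAPT and 0.823 under PP2), while with median centring it was called lower under DAPT (−1.04, adjusted p = 0.0309) and TAE226 (−1.06, adjusted p = 0.0202), where it was dim. Slc38a2, a neutral amino acid transporter, was lower under U0126 (−0.50) and not called under the other 3. The untested Slc7a11 had intensities of 28.2, 36.3 and 18.6 under DAPT, 48.9, 38.2 and 15.7 under U0126, 51.8, 54.0 and 95.5 under TAE226 and 6.0, 3.8 and 6.1 under PP2, against 65.9, 58.5 and 43.4 in vehicle. All of these except the third TAE226 value lay below the median of their array.

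Of the 4 sensor genes, Xbp1 included, 3 were lower under DAPT, 2 under U0126, 2 under TAE226 and 1 under PP2. Called in either direction were 75%, 50%, 50% and 50% of them, against 34.3%, 40.7%, 30.9% and 52.8% of all genes. The share under PP2 was thus near that of all genes. Xbp1 encodes the transcription factor that IRE1 activates by splicing. Its signals were 13.49, 13.37 and 13.28 under DAPT, 12.98, 13.00 and 12.97 under U0126, 13.05, 13.03 and 13.09 under TAE226, 13.70, 13.75 and 13.71 under PP2, against 13.67, 13.60 and 13.66 in vehicle. U0126 and TAE226 lay below the other groups without overlap, and PP2 lay above all 3 vehicle arrays. Against vehicle, Xbp1 stood at a log2 fold change of −0.26 under DAPT (SE 0.05, adjusted p = 0.000805), −0.66 under U0126 (SE 0.05, adjusted p = 2.69e-08), −0.59 under TAE226 (SE 0.05, adjusted p = 2.87e-07) and 0.08 under PP2 (SE 0.05, adjusted p = 0.227). Averaged over all its probe sets the value under DAPT was −0.11 and not called. Spliced and unspliced Xbp1 mRNA were not measured apart here.

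Eif2ak3, the sensor kinase PERK, was lower under all 4 inhibitors (−0.41, −0.23, −0.31 and −0.42 in the order DAPT, U0126, TAE226, PP2). Ern1, the sensor IRE1, was higher under PP2 (0.35, SE 0.09, adjusted p = 0.00403) and not called under the others, but with median centring its PP2 change was 0.13 (adjusted p = 0.359) and with all its probe sets averaged it was −0.07. Atf6 was lower under DAPT (−0.24), a call that ended without any 1 of vehicle replicates 2 and 3 and DAPT replicates 1 and 2 (adjusted p 0.0949 to 0.235).

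Of the 14 ER chaperones and folding enzymes, all were lower under U0126, 11 under DAPT, 11 under TAE226 and 7 under PP2, and Dnajc3 was higher under DAPT and PP2. Under PP2 57.1% of them were called in either direction, near the 52.8% of all genes. Under DAPT, U0126 and TAE226 85.7%, 100% and 78.6% were called, against 34.3%, 40.7% and 30.9% of all genes. The U0126 calls of Dnajb11 (−0.17), a cofactor of BiP, and Canx (−0.16), a lectin chaperone, ended with median centring (adjusted p = 0.1 and 0.0983). That of Dnajb11 also ended without vehicle replicate 2 or 3 or U0126 replicate 1 (adjusted p 0.0521 to 0.156), and that of Canx with any 1 of U0126 replicates 1 and 3 and vehicle replicates 1 and 2 left out (0.0506 to 0.17).

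Hspa5 encodes BiP, the main ER chaperone, which also holds the sensors inactive. Its signals were 13.79, 13.85 and 13.68 under DAPT, 13.50, 13.67 and 13.55 under U0126, 13.54, 13.81 and 13.79 under TAE226, 13.97, 14.07 and 13.98 under PP2, against 14.16, 14.04 and 14.29 in vehicle. U0126 gave the lowest mean, and the PP2 arrays overlapped with vehicle. For Hspa5 the log2 fold change was −0.39 under DAPT (SE 0.08, adjusted p = 0.00111), −0.59 under U0126 (SE 0.08, adjusted p = 1.62e-05), −0.45 under TAE226 (SE 0.08, adjusted p = 0.000398) and −0.15 under PP2 (SE 0.08, adjusted p = 0.115). With median centring Hspa5 was called lower under PP2 as well (−0.37, adjusted p = 0.00565).

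Pdia6, a disulfide isomerase, was lower under each inhibitor. It was measured at 11.58, 11.48 and 11.37 under DAPT, 11.21, 11.27 and 11.14 under U0126, 11.16, 11.31 and 11.04 under TAE226, 11.47, 11.49 and 11.45 under PP2, against 12.03, 12.02 and 12.16 in vehicle. No inhibitor array reached the vehicle range. Its log2 fold change was −0.59 under DAPT (SE 0.07, adjusted p = 5.47e-06), −0.86 under U0126 (SE 0.07, adjusted p = 4.27e-08), −0.90 under TAE226 (SE 0.07, adjusted p = 6.71e-08) and −0.60 under PP2 (SE 0.07, adjusted p = 2.02e-06). Averaged over its probe sets the DAPT value was −0.44 and the PP2 value −0.21, neither of them called.

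Manf, a secreted protein of the ER stress response, was lower under all 4. Its signals were 12.13, 12.06 and 12.04 under DAPT, 11.76, 11.86 and 11.85 under U0126, 11.96, 11.96 and 11.88 under TAE226, 12.37, 12.37 and 12.38 under PP2, against 12.66, 12.73 and 12.65 in vehicle. The PP2 arrays lay between vehicle and the other inhibitors. Against vehicle, Manf stood at a log2 fold change of −0.60 under DAPT (SE 0.05, adjusted p = 4.33e-08), −0.86 under U0126 (SE 0.05, adjusted p = 3.09e-10), −0.75 under TAE226 and −0.31 under PP2.

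Dnajb9, a cofactor of BiP that acts on IRE1 and is a target of XBP1, was measured at 11.21, 11.14 and 11.16 under DAPT, 10.34, 10.43 and 10.68 under U0126, 11.09, 10.88 and 10.97 under TAE226, 11.56, 11.31 and 11.41 under PP2, against 11.41, 11.44 and 11.30 in vehicle. U0126 arrays were the lowest and PP2 arrays overlapped with vehicle. Its log2 fold change was −0.21 under DAPT (not called, adjusted p = 0.0606), −0.90 under U0126 (SE 0.08, adjusted p = 2.36e-07), −0.40 under TAE226 and 0.04 under PP2 (not called, adjusted p = 0.7). Dnajc3, a cochaperone that inhibits PERK, was instead higher under DAPT (0.29) and PP2 (0.36) and lower under U0126 (−0.21), and with median centring both rises were no longer called (0.16, adjusted p = 0.231, and 0.14, adjusted p = 0.249).

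Hyou1, Pdia4 and Sdf2l1, an ER heat shock protein, a disulfide isomerase and a component of an ER chaperone complex, were lower under all 4 (log2 fold change −0.24 to −0.87), but averaged over its probe sets Pdia4 turned to 0.052 under DAPT and 0.12 under PP2. Of these, the calls of Pdia4 and Sdf2l1 under PP2 ended without vehicle replicate 3 (adjusted p = 0.093 and 0.0594), without PP2 replicate 3 for Pdia4 (0.0617) and without PP2 replicate 1 for Sdf2l1 (0.0518), and that of Hyou1 under TAE226 ended without TAE226 replicate 2 (0.0622). Hsp90b1, the ER member of the HSP90 family, was called lower under U0126 (−0.49) and under none of the other 3. Of the lectin chaperones, which retain unfinished glycoproteins, Canx was lower under DAPT (−0.24) and PP2 (−0.34), and Calr was lower under U0126 (−0.37) and not called under PP2 (0.08).

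In ER-associated degradation 3 of 6 genes were lower under DAPT, 4 under U0126, 3 under TAE226 and 2 under PP2, and with Sel1l higher the 3 of 6 called under PP2 were near the 52.8% of all genes. Called in either direction under DAPT, U0126 and TAE226 were 50%, 83.3% and 50%, against 34.3%, 40.7% and 30.9% of all genes. Herpud1, whose promoter window held a CARE and an ERSE-II, was measured at 10.35, 10.44 and 10.51 under DAPT, 9.52, 10.06 and 9.65 under U0126, 10.21, 10.23 and 9.83 under TAE226, 10.24, 10.16 and 10.69 under PP2, against 10.68, 10.94 and 11.04 in vehicle. U0126 gave the lowest mean, and the third PP2 array lay within the vehicle range. For Herpud1 the log2 fold change was −0.45 under DAPT (SE 0.15, adjusted p = 0.0291), −1.14 under U0126 (SE 0.15, adjusted p = 1.32e-05), −0.80 under TAE226 (SE 0.15, adjusted p = 0.000708) and −0.52 under PP2 (SE 0.15, adjusted p = 0.00834). The DAPT call ended without any 1 of vehicle replicates 2 and 3 and DAPT replicates 1 and 2 (adjusted p 0.0641 to 0.106).

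Syvn1, the ubiquitin ligase HRD1, was lower under U0126 (−0.66, SE 0.07, adjusted p = 7.09e-07) and not called under PP2 (−0.05), where the value with median centring was −0.27 (adjusted p = 0.0458). Derl1, a channel component, was lower under all 4 (log2 fold change −0.26 to −0.48). Sel1l, the partner of HRD1, was lower under U0126 (−0.25) and higher under PP2 (0.16), but the rise ended without vehicle replicate 3 (adjusted p = 0.0603) and its value was −0.06 with median centring. Edem1, which draws misfolded glycoproteins to degradation, was higher under U0126 (0.36), while its second probe set was called lower there and the rise was not called with median centring (adjusted p = 0.0764).

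The 2 arms placed the inhibitors in a different order on the arrays. For each gene the mean over 15 arrays was subtracted, and the median over the genes of an arm was read on each array. For the ATF4 arm these medians were −0.05, −0.02 and −0.04 under DAPT, −0.12, −0.08 and −0.11 under U0126, −0.19, −0.08 and −0.09 under TAE226 and −0.30, −0.29 and −0.50 under PP2, against 0.53, 0.55 and 0.48 in vehicle. For the ER arm they were 0.00, 0.00 and −0.07 under DAPT, −0.26, −0.22 and −0.25 under U0126, −0.11, −0.16 and −0.11 under TAE226 and 0.10, 0.14 and 0.14 under PP2, against 0.31, 0.21 and 0.28 in vehicle. PP2 was lowest of the 5 groups in the ATF4 arm and nearest to vehicle in the ER arm, and U0126 was lowest in the ER arm. With median centring the ER arm's median against vehicle was −0.37 under DAPT, −0.61 under U0126, −0.58 under TAE226 and −0.42 under PP2, so there DAPT and not PP2 was nearest to vehicle, while in the ATF4 arm PP2 was still the lowest (−1.31).

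**Figure D4:**
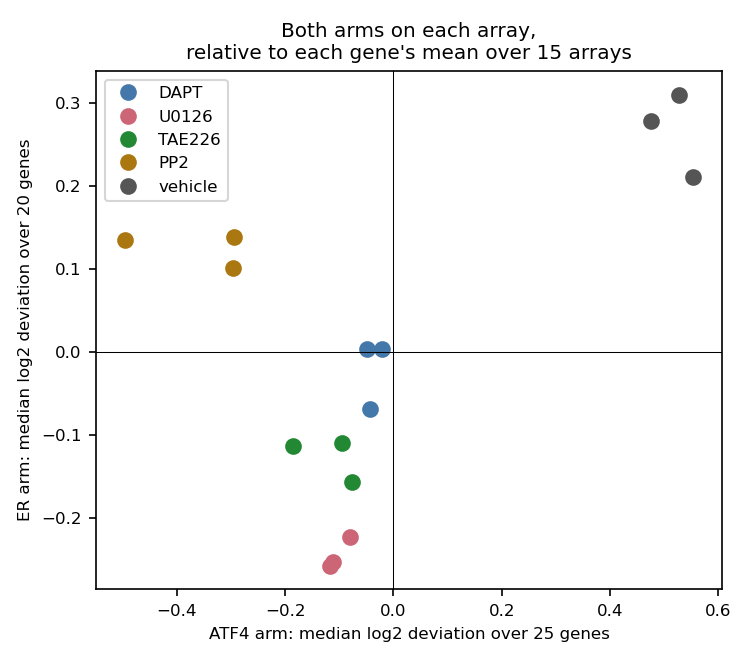
Median deviation of the 25 tested ATF4 arm genes (horizontal axis) and the 20 ER arm genes (vertical axis) on each of 15 arrays, in log2 units relative to each gene's mean over the arrays. Vehicle lies alone at the upper right, PP2 at the left and above 0 for the ER arm, and U0126 at the bottom.

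All 6 pairs of inhibitors were tested directly in the same fit, and values in brackets are log2 fold changes of the first-named inhibitor over the second. Between U0126 and PP2, where 55.6% of all genes were called (27.9% higher and 27.7% lower under U0126), the ATF4 arm had 12 genes higher and 3 lower of 25, and the ER arm had 2 higher and 14 lower of 20. Of the 9 synthesis enzymes 7 were higher under U0126, led by Phgdh (2.53, SE 0.07, adjusted p = 7.79e-14), Mthfd2 (1.56, SE 0.06, adjusted p = 1.13e-12) and Aldh18a1 (0.89). Chac1 (0.97, SE 0.09, adjusted p = 1.74e-07) and Trib3 (0.87, SE 0.16, adjusted p = 0.000169) were higher under U0126 too. Ddit3 was higher by 0.28, a call that ended without U0126 replicate 2 (adjusted p = 0.267) or 3 (0.0566) or PP2 replicate 1 (0.0513) or 3 (0.193), and Atf4 was not called (0.12, 95% confidence interval 0.00 to 0.24, adjusted p = 0.0816), though with median centring it was (0.26, adjusted p = 0.0342). Asns was higher (0.40, SE 0.06, adjusted p = 2.28e-05).

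In the other direction, Xbp1 (−0.74, SE 0.05, adjusted p = 3.75e-09), Dnajb9 (−0.94, SE 0.08, adjusted p = 6.93e-08), Hspa5 (−0.43, SE 0.08, adjusted p = 0.000199), Manf (−0.55), Creld2 (−0.52) and Syvn1 (−0.61) were lower under U0126 than under PP2. Edem1 and Canx were the ER genes higher under U0126 (0.53 and 0.17), and the Canx call ended without U0126 replicate 2 (adjusted p = 0.0838) or PP2 replicate 1 (0.0528). Centring on array medians moved the share of higher genes among all calls to 67.3%, against 50.2% with the authors' scaling, and left 13 ATF4 arm genes higher and 1 lower, and 2 ER arm genes higher and 10 lower. The actin ratio of these groups was 1.28 ± 0.07 under U0126 and 1.57 ± 0.04 under PP2 (SD, n = 3 each), and its part in the difference was not tested.

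**Figure D5:**
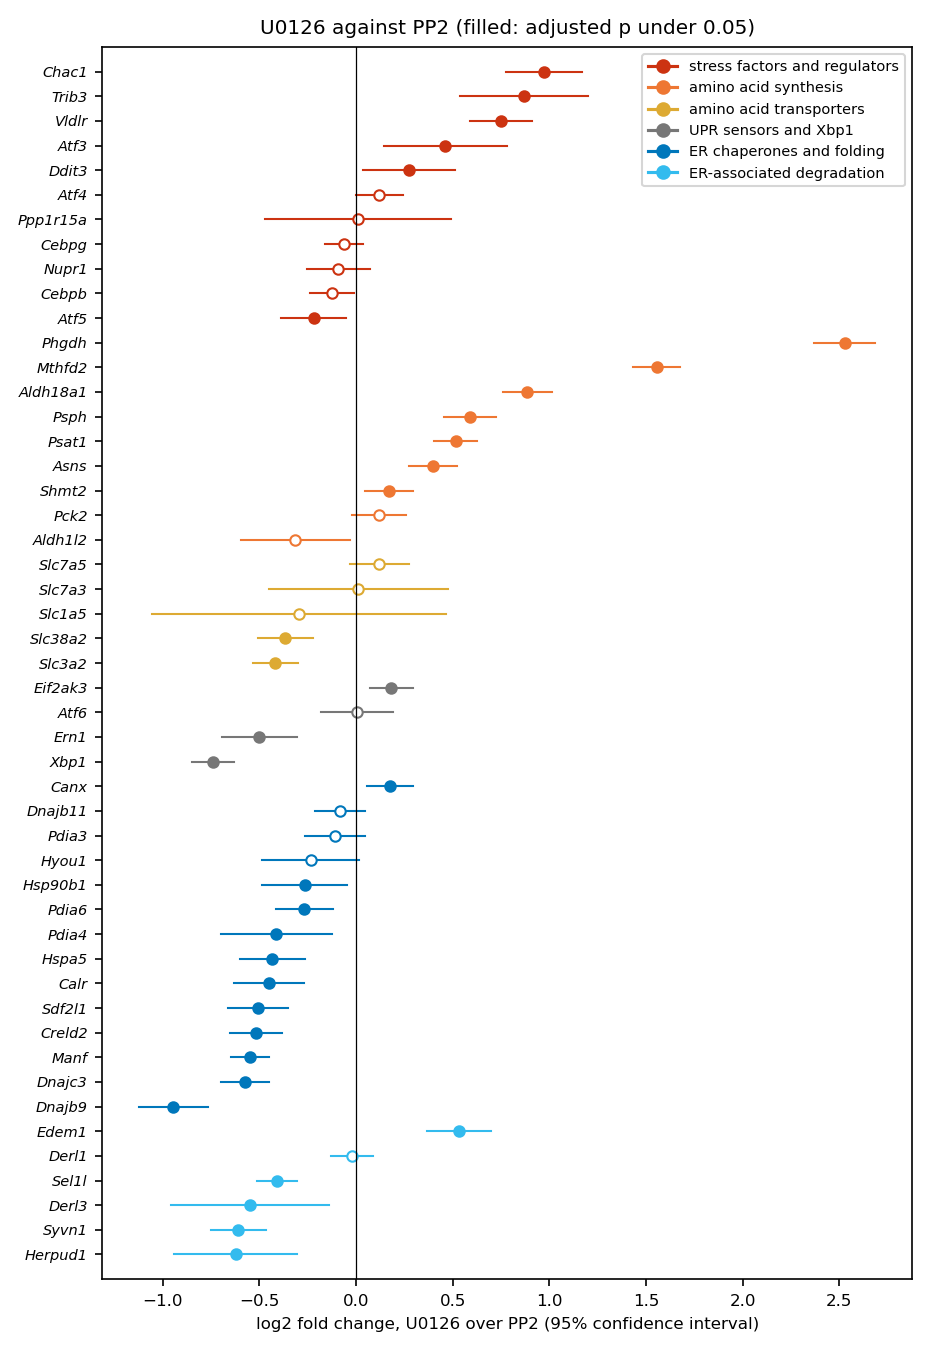
Log2 fold change of U0126 over PP2 for the 49 tested genes, ordered by size within each role, with 95% confidence intervals and filled circles for an adjusted p under 0.05. Phgdh is at 2.53 and Mthfd2 at 1.56 on the right, while most ER chaperones and degradation genes lie left of 0, down to −0.94 for Dnajb9.

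Between TAE226 and PP2 7 of 9 synthesis enzymes were higher under TAE226 and most called ER genes were lower. With 43.5% of all genes called (23.3% higher and 20.2% lower under TAE226), 14 ATF4 arm genes were higher and 2 lower, and 1 ER arm gene was higher and 11 lower. Among the 14, the synthesis enzyme gene Aldh18a1 and Vldlr each had another probe set that was called the other way. Phgdh (1.32, SE 0.07, adjusted p = 4.25e-10), Mthfd2 (1.19), Chac1 (0.93), Atf3 (0.83) and Trib3 (0.77) were higher under TAE226, and Xbp1 (−0.66, SE 0.05, adjusted p = 2.16e-08), Sdf2l1 (−0.55) and Hspa5 (−0.29, SE 0.08, adjusted p = 0.00659) were lower. Slc7a5 was lower under TAE226 as well (−0.44). Ddit3 was not called (0.18, 95% confidence interval −0.06 to 0.42, adjusted p = 0.209). Atf4 (0.28, SE 0.06, adjusted p = 0.000864) and Asns (0.19, SE 0.06, adjusted p = 0.0161) were higher under TAE226, but neither was called with median centring (adjusted p = 0.0634 and 0.327), and the Asns call ended without TAE226 replicate 2 (0.0861) or PP2 replicate 1 (0.0637).

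Between DAPT and PP2 the synthesis enzymes were higher under DAPT and 7 of 20 ER genes were called. With 39.7% of all genes called (21.7% higher and 18% lower under DAPT), 15 ATF4 arm genes were higher and 3 lower, among them 8 of 9 synthesis enzymes higher, with Phgdh at 1.59, Psat1 at 1.09 and Aldh1l2 at 1.02. Among the 15, Cebpg had another probe set that was called the other way. Vldlr was higher by 1.34 under DAPT (11.90 ± 0.05 under DAPT and 10.56 ± 0.07 under PP2, mean ± SD, n = 3 each), while Ddit3 was lower (−0.44, SE 0.11, adjusted p = 0.00462) but not called with median centring (−0.36, adjusted p = 0.0609). Trib3 was higher (0.65, SE 0.16, adjusted p = 0.0032) and Atf4 was not called (0.05, 95% confidence interval −0.07 to 0.17, adjusted p = 0.542). The Asns difference (0.17, SE 0.06, adjusted p = 0.0273) lost its call without DAPT replicate 1 or 2 or PP2 replicate 1 or 2 (adjusted p 0.0532 to 0.0996) and with median centring (0.088). Of the ER arm 0 genes were higher and 7 lower. The 35% called lay below the 39.7% of all genes called in either direction. Since all of these calls were lower, the same 35% stood against 18% of all genes lower. Xbp1 was lower (−0.34, SE 0.05, adjusted p = 5.85e-05), and so was Hspa5 (−0.24, SE 0.08, adjusted p = 0.0259), whose call ended without DAPT replicate 1 (adjusted p = 0.051), DAPT replicate 3 (0.11) or PP2 replicate 2 (0.0984) and with median centring (0.31). The 7 became 4 without DAPT replicate 2, DAPT replicate 3 or PP2 replicate 1, and 0 with median centring, where 69.6% of all calls were higher (against 54.8% with the authors' scaling).

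Between DAPT and U0126 the ER genes called were nearly all higher under DAPT. With 44.7% of all genes called (23.1% higher and 21.6% lower under DAPT), 8 ATF4 arm genes were higher and 8 lower, and 10 ER arm genes were higher and 1 lower, the 1 being Edem1 (−0.52). Among the 10, Derl1 had another probe set that was called the other way. Its call also ended without DAPT replicate 1 or 2 or U0126 replicate 1 or 2 (adjusted p 0.0888 to 0.146). With median centring Pdia6, Manf and Derl1 were no longer called (adjusted p = 0.118, 0.141 and 0.514). Herpud1 (0.69), Dnajb9 (0.69), Dnajc3 (0.51) and Xbp1 (0.40, SE 0.05, adjusted p = 1e-05) were higher under DAPT. Ddit3 (−0.72, SE 0.11, adjusted p = 6.65e-05), Phgdh (−0.93) and Mthfd2 (−0.88) were lower, and Aldh1l2 (1.34), Slc3a2 (0.73) and Atf5 (0.64) were higher. Asns was lower (−0.22, SE 0.06, adjusted p = 0.00515) but not called with median centring (adjusted p = 0.0644), and Trib3 (−0.22, 95% confidence interval −0.55 to 0.11, adjusted p = 0.282), Atf4 (−0.07, 95% confidence interval −0.19 to 0.05, adjusted p = 0.322) and Hspa5 (0.20, 95% confidence interval 0.03 to 0.36, adjusted p = 0.0536) were not called.

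DAPT against TAE226 was called for 22.5% of all genes (11.4% higher and 11.2% lower under DAPT). Of the ATF4 arm 7 genes were higher, Vldlr by 1.02 and Slc7a5 by 0.74 among them, and 8 were lower, such as Atf3 (−0.97), Ddit3 (−0.62, SE 0.11, adjusted p = 0.000587) and Mthfd2 (−0.51). The 8 became 4 without TAE226 replicate 2 and 3 with median centring, where 73.1% of all calls were higher (against 50.4% with the authors' scaling). Of the ER arm 6 genes were higher and 0 lower, with Dnajc3 at 0.38 and Xbp1, a sensor gene, also higher (0.32, SE 0.05, adjusted p = 0.000188). With 1 array of these groups left out, the 6 ER arm genes became 4 to 5. Atf4 was lower (−0.23, SE 0.06, adjusted p = 0.0079), a call that ended without TAE226 replicate 2 (adjusted p = 0.053) and with median centring (0.49), while Trib3 (−0.12, 95% confidence interval −0.45 to 0.21, adjusted p = 0.652), Asns (−0.01, 95% confidence interval −0.14 to 0.11, adjusted p = 0.9) and Hspa5 (0.06, 95% confidence interval −0.11 to 0.22, adjusted p = 0.68) were not called.

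U0126 against TAE226 was called for 38.8% of the members, close to the 37.1% of all genes (17.7% higher and 19.4% lower under U0126). Phgdh (1.20, SE 0.07, adjusted p = 3.28e-09), Slc7a5 (0.56), Edem1 (0.45) and Vldlr (0.43) were higher under U0126, though another Vldlr probe set was called the other way. Atf5 (−0.89), Slc38a2 (−0.57), Dnajb9 (−0.50) and Syvn1 (−0.50) were lower. Xbp1 (−0.07, 95% confidence interval −0.18 to 0.03, adjusted p = 0.282), Ddit3 (0.09, 95% confidence interval −0.14 to 0.33, adjusted p = 0.547) and Hspa5 (−0.14, 95% confidence interval −0.31 to 0.03, adjusted p = 0.18) were not called. Asns was higher (0.21, SE 0.06, adjusted p = 0.00976), a call that ended without U0126 replicate 2 (adjusted p = 0.055), and Trib3 was not called (0.10, 95% confidence interval −0.23 to 0.43, adjusted p = 0.663). Atf4 was lower (−0.15, SE 0.06, adjusted p = 0.0431), but lost that call without any 1 of the 3 U0126 arrays or TAE226 replicate 2 or 3 (adjusted p 0.0516 to 0.199), and its sign with median centring (0.017). Of the ATF4 arm 8 genes were higher and 6 lower. The 8 became 5 without U0126 replicate 2, and the 6 became 2 with median centring, where 79.4% of all calls were higher (against 47.8% with the authors' scaling).

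Other genes of these pathways, taken from lists by name, were counted in the same comparisons. Of 19 cytosolic aminoacyl-tRNA synthetases, many of which ATF4 induces, 15 were lower under DAPT, 11 under U0126, 15 under TAE226 and 17 under PP2, and 0 were higher, where 17.5%, 21.3%, 15.9% and 26.9% of all genes were lower, with medians of −0.41, −0.26, −0.40 and −0.59. Eprs, which charges both glutamate and proline, changed by −0.59, −0.60, −0.76 and −1.10 under DAPT, U0126, TAE226 and PP2. Of 20 further ATF4 targets 14 were lower under DAPT and 0 higher, 9 lower and 2 higher under U0126, 13 lower and 1 higher under TAE226, and 14 lower and 2 higher under PP2, with medians of −0.57, −0.25, −0.43 and −1.06. Stc2, a secreted glycoprotein, changed by −1.92, −1.19, −2.57 and −2.44 in that order, and Cth, which makes cysteine from cystathionine, changed by −1.24 under DAPT, −0.71 under U0126, −1.54 under TAE226 and −2.45 under PP2.

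Of 14 genes for eIF2 kinases, eIF2, eIF2B and phosphatase subunits 3 were lower under DAPT, 4 under U0126, 1 under TAE226 and 4 under PP2, and 1, 0, 1 and 1 were higher, where 17.5%, 21.3%, 15.9% and 26.9% of all genes were lower. With median centring 3, 4, 12 and 7 were lower and 0 were higher, so the count under TAE226 and PP2 moved with the scaling. Eif2ak2, the kinase PKR, which interferon induces and which senses double-stranded RNA, was among the lower under DAPT (−1.10), U0126 (−1.07) and PP2 (−1.11).

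Of 38 further ER folding, translocation and degradation genes 19, 18, 21 and 21 were lower under DAPT, U0126, TAE226 and PP2, and 4, 3, 3 and 6 were higher. Among all genes 17.5%, 21.3%, 15.9% and 26.9% were lower and 16.8%, 19.4%, 15% and 25.9% higher. With median centring 21, 18, 33 and 25 of the 38 were lower and 0, 1, 0 and 2 higher. On that scale 21.4%, 21.2%, 37.2% and 38.1% of all genes were lower, so the counts moved with the scaling. The median of these 38 was −0.18 under DAPT, −0.22 under U0126, −0.32 under TAE226 and −0.18 under PP2. Sec24d, a coat protein of ER export vesicles, changed by −0.82, −0.86, −1.24 and −0.89, and Pdia5, a disulfide isomerase, by −1.07, −0.87, −1.13 and −1.33 in that order.

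Chaperones outside the ER were counted beside these. Among all genes 16.8%, 19.4%, 15% and 25.9% were higher under DAPT, U0126, TAE226 and PP2, and 17.5%, 21.3%, 15.9% and 26.9% were lower. Several of the counts below lie near these shares, such as the heat shock genes lower under DAPT and PP2 and the mitochondrial genes lower under U0126. Of 15 cytosolic heat shock genes 4 were higher and 3 lower under DAPT, 8 higher and 2 lower under U0126, 9 higher and 1 lower under TAE226, and 5 higher and 3 lower under PP2, with medians of 0.06, 0.18, 0.19 and 0.04, of which those for DAPT, TAE226 and PP2 turned negative with median centring (−0.069, −0.062 and −0.17). With centring 2, 3, 4 and 2 were higher, where 687, 1198, 423 and 1207 of all 11459 genes were. The small heat shock protein Hspb8 rose under U0126 (0.88) and TAE226 (0.68) and fell under PP2 (−0.95). Of 10 mitochondrial chaperones and proteases 5, 2, 6 and 7 were lower and 1, 1, 0 and 0 higher in the order DAPT, U0126, TAE226, PP2, with the mitochondrial HSP70 Hspa9 at −0.65, −0.35, −0.65 and −1.41.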

How the data were processed

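RNA of 15 mammosphere samples was hybridised to Affymetrix Mouse430_2 arrays, which read the 3′ ends of mRNAs, 3 per treatment. The deposited values are linear intensities per probe set, made with MAS5 in Affymetrix Expression Console per the submitters' processing notes, and every deposited column has the same trimmed mean, so arrays were scaled before deposit. No raw scans or detection calls were used here, so probe set noise was judged by signal alone.

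The members, roles and gene lists were chosen with earlier results of these data known. Intensities were taken to log2 with no pseudocount. Probe sets annotated to exactly 1 gene were used, and each gene was read from its probe set with the highest mean. The 11459 genes whose signal passed the median of the array on 3 or more arrays were fitted in limma 3.58.1 (R 4.3.3) with 5 group means, a trend of variance on signal and 10 contrasts. P-values were adjusted by Benjamini-Hochberg over all 11459 genes in each contrast, and an adjusted p under 0.05 is a call. The procedure was tested on simulated data.

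Values per array and statistics were given for up to 3 called members per role with the largest change against vehicle and for Ddit3, Trib3, Asns, Atf4, Hspa5 and Xbp1, and log2 fold changes and counts for the others. From each list, up to 3 called genes with the largest change were named. Promoter sequence came from the RefSeq table of GRCm38.p6. Alternatives were quantile normalisation, median centring, a pseudocount of 50, other signal filters, the mean of a gene's probe sets, no variance trend, only the groups compared, a replicate block and each array left out. Avoiding probe sets with the cross-hybridisation suffix was chosen after seeing the data. With 3 arrays per group, precision is limited by their number.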

Additional observations from a re-analysis of the deposited data

How the results depend on the processing

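Of 310 calls among the 490 values of members in 10 comparisons, quantile normalisation ended 15 and added 17, median centring ended 48, added 26 and reversed 3, averaging a gene's probe sets ended 57, added 27, reversed 11 and gave 5 values that had not been called a call of the opposite sign, and fitting only the groups compared ended 20 and added 8. No filter and no variance trend ended 15 each, avoiding suffixed probe sets ended 7 and added 1, and leaving out 1 array at a time ended 55 calls at least once. The cause was not tested in any case.

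The replicate numbers did not pair the samples (correlation of same-numbered deviations −0.243 to 0.202), and a replicate block ended 12 of the 310 calls, with none gained or reversed.

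With quantile normalisation 2 members and 1 ATF4 arm gene were higher under DAPT, and 1 ER gene was higher in DAPT against PP2 and in U0126 against PP2. With median centring the members higher were 0 under DAPT, 1 under U0126 and 0 under PP2, with 0 of the ER arm, the ER genes lower under PP2 were 15, and the members' medians were −0.54, −0.60, −0.72 and −0.64 for DAPT, U0126, TAE226 and PP2. Between inhibitors, centring left 3 ATF4 arm genes lower in DAPT against TAE226, 1 ATF4 and 0 ER genes lower in DAPT against PP2, 2 of each lower in U0126 against TAE226, 1 ATF4 gene lower in U0126 against PP2 and 0 ER genes higher in TAE226 against PP2. Sel1l reversed to −0.062 under PP2, and Atf4 (0.017) and Shmt2 (0.0098) in U0126 against TAE226.

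Requiring signal above the median on all 15 arrays gave 2 members and 1 ATF4 arm gene higher under DAPT, and a pseudocount of 50 a PP2 median of −0.39. With probe sets averaged, the members' medians were −0.31 under DAPT, −0.38 under TAE226 and −0.29 under PP2. Members higher were then 2 under DAPT, 1 under U0126 and 1 under TAE226, of which the ATF4 arm had 1 under DAPT and 1 under TAE226. The ATF4 arm had 1 higher under PP2, and the ER arm 0 under U0126 and 1 under PP2. ER genes higher were 2 in DAPT against TAE226 and 2 in DAPT against PP2, 8 were lower in U0126 against TAE226, and 5 ATF4 arm genes were lower in U0126 against PP2. Averaging reversed Pdia4 (0.052 under DAPT, 0.12 under PP2), Edem1 (−0.022 under U0126), Slc38a2 (0.20) and Ern1 (−0.070) under PP2, Pck2 (0.31), Ern1 (−0.34) and Derl1 (−0.025) in DAPT against U0126, Cebpg (−0.036) and Shmt2 (−0.039) in DAPT against PP2, Shmt2 (0.21) and Pck2 (−0.30) in U0126 against TAE226, Pck2 (−0.24), Ern1 (0.18) and Derl1 (0.22) in U0126 against PP2, and Shmt2 (−0.10) in TAE226 against PP2.

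Leaving out 1 array at a time gave 1 to 2 members and 0 to 1 ATF4 arm genes higher under DAPT, with members' medians of −0.40 to −0.36 under DAPT, −0.54 to −0.46 under U0126 and −0.42 to −0.36 under PP2. ATF4 arm genes lower in DAPT against TAE226 were 4 to 7, ER genes lower in DAPT against PP2 were 4 to 6, ATF4 arm genes higher in U0126 against TAE226 were 5 to 8, and ER genes higher in U0126 against PP2 were 1 to 2.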
